A study of Drosophila melanogaster with 6 samples.

Results

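The adult fat body sends secreted signals to other organs, and 8 genes that encode such signals are described here out of the 17558 genes listed in the count and FPKM tables. They were chosen by gene name, and each name matched a single gene. They are *CCHa2*, *daw*, *gbb*, *upd2* and *egr*, which encode ligands, *Ilp6*, which encodes an insulin-like peptide, *ImpL2*, which encodes a binding protein of insulin-like peptides, and *NLaz*, which encodes a lipocalin. RNA was sequenced from fat body cells dissociated from abdominal carcasses, with 100 females per genotype, and 3 libraries were made for each group. Females of both groups were *y w* and carried the oenocyte driver *PromE800-Gal4*, the adipocyte driver *3.1Lsp2-Gal4* and *tub-Gal80ts*, which holds the drivers silent at 18°. They were raised at 18°, collected when 0 to 2 days old, and kept with *y w* males at 18° for 3 days. They were then moved to 29° for 5 days, and the food held wet yeast paste. The control group expressed a hairpin against firefly luciferase (*UAS-Luc*, line JF01355), although its sample labels give the genotype as wild type, and the other group expressed a hairpin against *svp* (*UAS-svp*, RNAi line GD1546). Each group rests on a single hairpin line, so an effect of *svp* RNAi and an effect of the insertion or stock cannot be told apart.

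The fat body combines the storage roles of liver and adipose tissue with an endocrine role, and several of its signals reach the insulin-producing cells of the brain. CCHa2 is a short peptide that acts on its G protein-coupled receptor CCHa2-R, Upd2 is a leptin-like cytokine of the JAK/STAT pathway, and Egr is the fly TNF. Daw and Gbb belong to the TGF-β family, Daw as an Activin-like ligand that signals through Babo and Smox and Gbb as a BMP ligand that signals through Mad. Ilp6 is an insulin-like peptide made mainly in the fat body, ImpL2 binds insulin-like peptides and restrains the pathway, and NLaz is a lipocalin known to dampen insulin signaling downstream of JNK.

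Libraries held between 15648948 and 19476599 counts on genes. In these counts the targeted transcript *svp* was not lower under its RNAi, with a CPM (counts scaled to a common library size, with library totals scaled by TMM) of 28.9, 77.5 and 79.0 among the *Luc* control RNAi libraries against 67.1, 86.9 and 82.4 among those labelled *svp* RNAi, here called *svp*-labelled (log2 fold change 0.35, standard error 0.39, edgeR adjusted p = 1.00). In FPKM (fragments scaled for gene length and library total, without TMM scaling) it was higher without overlap, with 21.7, 22.1 and 24.3 against 11.4, 18.5 and 18.6. Directions below are given by the groups' labels, and the level of *svp* in other assays is not analysed here. *Luc* replicate 1 stood apart from the other libraries. Its TMM factor was the highest, at 1.39 against 0.824 to 1.13, and the CPM summed over 9 adult fat body markers, of which 8 were detected in every library, was 58637 there and between 123100 and 181760 in the other 5 libraries. The summed CPM of 7 midgut markers was 1444 in it, 986 in *svp*-labelled replicate 3 and 283 to 617 in the others, where it was mostly *Amy-p*. Of these markers *betaTry* had 311.9 CPM in *Luc* replicate 1, 120.5 in *svp*-labelled replicate 3 and at most 3.26 elsewhere. The summed CPM of 14 ovary markers ran from 559 in *Luc* replicate 3 to 3087 in *svp*-labelled replicate 1. Their part in the results was not tested. The 7 signal genes other than *Ilp6* had their lowest CPM of all 6 libraries in *Luc* replicate 1. In these bulk samples fewer cells of a type and less RNA per cell cannot be told apart.

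*CCHa2* was the most abundant of the 8 transcripts per length and *upd2* the least, in both groups. On the FPKM scale *CCHa2* reached 306 ± 32.5 (SD, n = 3) in the *Luc* libraries. Its mean over the libraries of both groups, 480 FPKM, had rank 185 among 13475 detected genes. *NLaz* (45.2 ± 10.2 FPKM), *Ilp6* (39.9 ± 3.13 FPKM) and *ImpL2* (33.6 ± 9.67 FPKM) followed in the controls. The order of *NLaz* and *Ilp6* and that of *Ilp6* and *ImpL2* held in only 2 of the 3 control libraries, so these neighbors were not separated. *egr* (17.1 ± 4.29 FPKM), *gbb* (15.1 ± 3.63 FPKM), *daw* (6.52 ± 1.43 FPKM) and *upd2* (2.14 ± 0.850 FPKM) came next, each above the following gene in all 3 control libraries. In the *svp*-labelled libraries *daw* stood above *gbb* and *egr*, with 18.5 ± 1.23 FPKM against 14.4 ± 0.795 and 13.5 ± 3.43, and *Ilp6* stood below *ImpL2*, with 25.9 ± 7.48 FPKM against 39.9 ± 11. There *gbb* and *egr*, as well as *Ilp6* and *daw*, kept their order in 2 of 3 libraries only. The place of *Ilp6* depends on the gene length. The deposited FPKM of *Ilp6* correspond to a length of 1046 bases, the mean of its 4 annotated transcripts, whereas the files list 2413 bases, and with the listed length its level was 17.3 ± 1.36 in the controls and 11.2 ± 3.24 in the *svp*-labelled libraries.

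**Figure D1:**
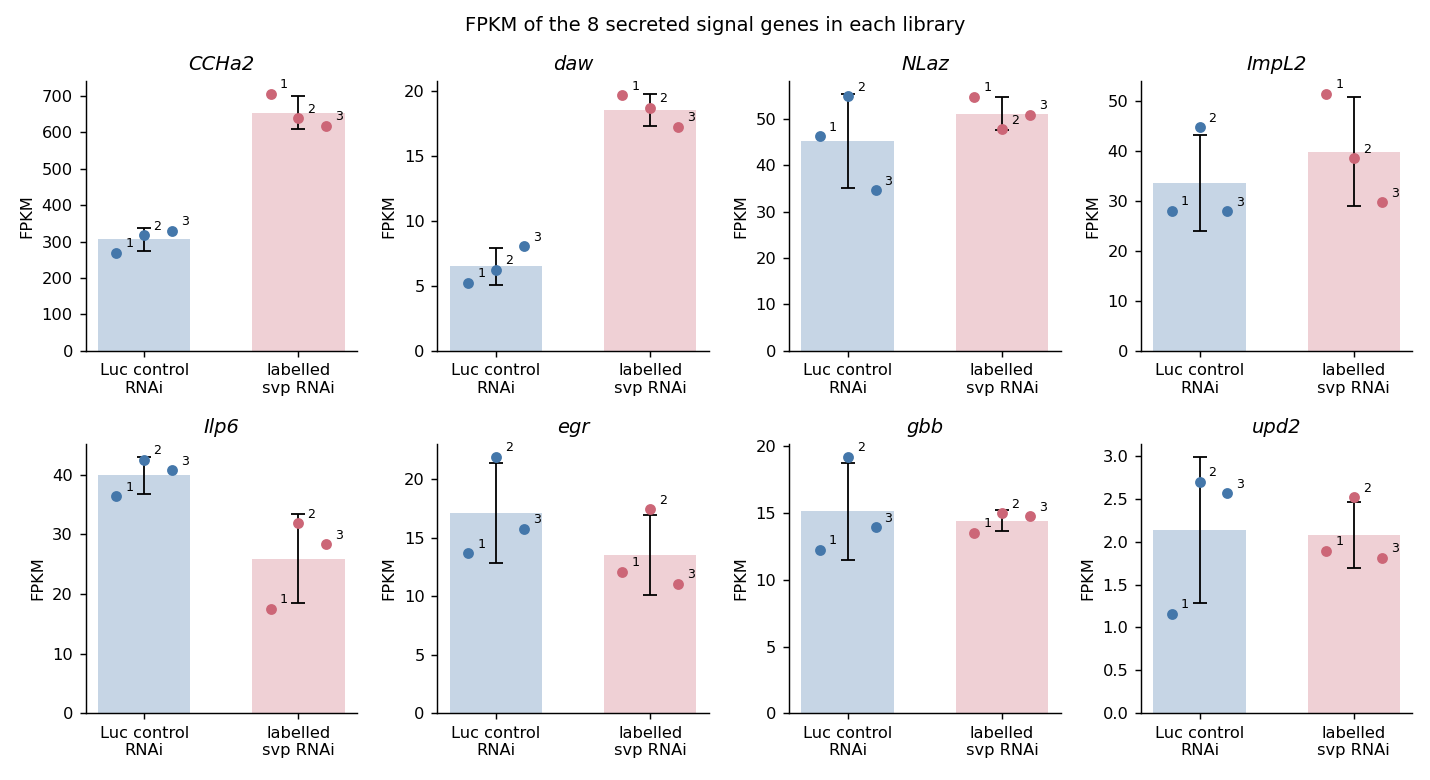
FPKM (vertical axes, each from 0) of the 8 signal genes in the 6 libraries. Points are libraries with their replicate number, bars are group means and error bars are SD (n = 3). *CCHa2* and *daw* do not overlap between the groups and are higher in the *svp*-labelled libraries, *Ilp6* does not overlap and is lower there, and the other 5 genes overlap.

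Between the groups, 2 of the 8 signal transcripts, *daw* and *CCHa2*, were higher in each of the *svp*-labelled libraries than in any control library, in CPM as well as in FPKM. Neither passed edgeR's quasi-likelihood test after Benjamini-Hochberg adjustment over all 9277 genes tested. The test called 0 of the 8 genes at an adjusted p under 0.05, against 9 of all genes tested (0.097%). An unadjusted p under 0.05 was found for 2 of the 8, both higher, against 4.99% of all genes tested (2.11% higher). DESeq2 called 1 of the 8, *daw*, as higher, against 1.29% of the 11588 genes to which it gave an adjusted p (0.544% higher). Without *Luc* replicate 1 edgeR called 0 of the 8, against 61 of 9509 genes (0.641%). The 8 genes passed the filter on low counts. Groups were apart in CPM for 2 of the 8, both higher, against 9.32% of all genes tested (4.51% higher), and in FPKM for 3 of the 8, of which 2 were higher and 1 lower, against 12.1% (7.73% higher and 4.37% lower). The fitted log2 fold changes had a median of -0.04 over the 8 genes, with 4 positive and 4 negative, and of -0.06 over all genes tested.

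*daw* (FBgn0031461; BDGP6 chromosome 2L from 2805261 to 2812376, + strand, 3 annotated transcripts) encodes the Activin-like ligand Dawdle, known in larvae for its part in the response to dietary sugar. Its counts were 254, 313 and 413 in the *Luc* libraries and 1094, 836 and 823 in the *svp*-labelled libraries. In CPM these were 10.8, 21.2 and 27.9 against 49.6, 59.9 and 47.7, so that the lowest library labelled *svp* RNAi lay above the highest control. The means were 20.0 ± 8.63 and 52.4 ± 6.53 CPM (SD, n = 3), a difference called by DESeq2 (log2 fold change 1.39, standard error 0.38, adjusted p = 0.0282) and not called by edgeR (log2 fold change 1.39, standard error 0.36, adjusted p = 0.457). As a fold, edgeR's estimate was 2.62 with a 95% interval from 1.46 to 4.71, which is not adjusted for the number of genes. The controls set most of the spread, since log2 CPM of *daw* had an SD of 0.70 in the controls and 0.17 in the *svp*-labelled libraries. Without *Luc* replicate 1, the lowest library, the log2 fold change was 1.13 with an edgeR adjusted p of 0.0739. Leaving out any 1 library gave values between 1.13 and 1.71.

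*CCHa2* (FBgn0038147; chromosome 3R from 13389059 to 13395197, − strand, 3 transcripts) had 5732, 7041 and 7453 counts in the *Luc* libraries against 17287, 12578 and 12993 counts in the *svp*-labelled libraries. Its CPM was 244, 478 and 504 in the controls and 784, 900 and 753 in the *svp*-labelled libraries, again without overlap. The groups differed by 1.99-fold in edgeR's fit (95% interval 1.18 to 3.36, not adjusted), or 0.99 on the log2 scale with a standard error of 0.32 (edgeR adjusted p = 0.743), and DESeq2 did not call the gene (adjusted p = 0.162). On the FPKM scale *Luc* replicate 1 lay closer to the other controls, with 269 FPKM against 318 and 330 (706, 639 and 618 in the *svp*-labelled libraries). There limma called *CCHa2*, with a log2 fold change of 1.10 on the log2(FPKM + 1) scale (adjusted p = 0.0193). The call therefore differed with the scaling and the tool, whereas the direction did not. The fit without *Luc* replicate 1 gave a log2 fold change of 0.76 and an edgeR adjusted p of 0.145.

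**Figure D2:**
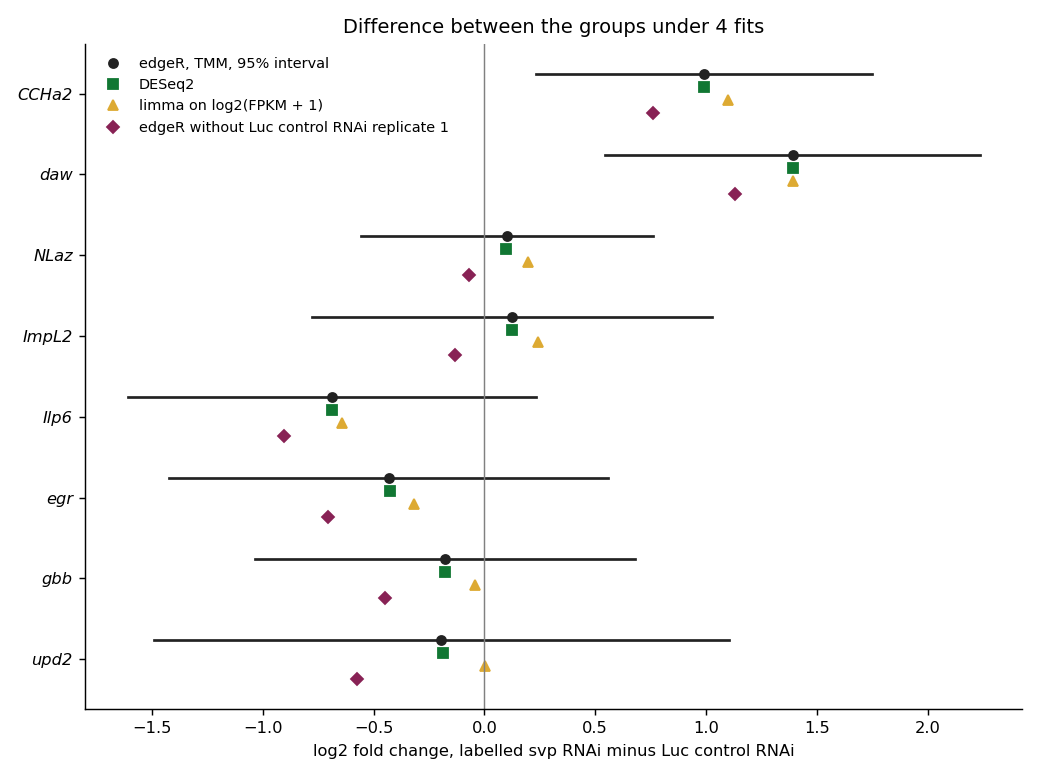
Log2 fold change (horizontal axis, *svp*-labelled libraries minus *Luc* control RNAi) of the 8 signal genes under 4 fits. Circles and lines are edgeR's estimate and its 95% interval, not adjusted for the number of genes, and the other symbols are estimates of DESeq2, of limma on log2(FPKM + 1) and of edgeR without *Luc* replicate 1. The intervals of *daw* and *CCHa2* lie above 0, and those of the other 6 genes include 0.

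Neither the insulin-like peptide nor the binding protein passed the test, and their values had opposite signs. *Ilp6* (FBgn0044047; chromosome X from 2331493 to 2334658, − strand) overlaps the region of *Raf*, which is on the opposite strand and shares 0 exonic bases with it. It had 646, 783 and 765 counts in the control libraries against 357, 522 and 495 counts in the *svp*-labelled libraries. In FPKM the groups did not overlap, with 36.4, 42.5 and 40.8 against 17.5, 31.9 and 28.3. In CPM they did, with 27.5, 53.2 and 51.7 against 16.2, 37.4 and 28.7, and *Luc* replicate 1 lay below *svp*-labelled replicates 2 and 3 after TMM scaling. The log2 fold change was -0.69 (standard error 0.39, 95% interval from -1.61 to 0.23, edgeR adjusted p = 1.00), and without *Luc* replicate 1 it was -0.91 (edgeR adjusted p = 0.318, unadjusted p = 0.0311).

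*ImpL2* (FBgn0001257; chromosome 3L from 4224006 to 4236147, − strand) had a CPM of 31.2, 82.5 and 52.4 in the controls and 70.1, 66.6 and 44.4 in the *svp*-labelled libraries. These ranges overlapped widely (log2 fold change 0.13, standard error 0.38, 95% interval from -0.78 to 1.03, edgeR adjusted p = 1.00), and the sign turned without *Luc* replicate 1, to -0.13. The annotation used here places 1651 exonic bases of *ImpL2* also in *CG46460*, on the same strand. Since *CG46460* is not listed in the count table, reads of both genes could be counted on *ImpL2*.

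Counts of 2 genes in a library can be set against each other without any library scaling, and this was done for pairs chosen after their values were seen, hence without a test. For each count of *Ilp6* there were 8.87, 8.99 and 9.74 counts of *CCHa2* in the *Luc* libraries and 48.4, 24.1 and 26.2 in the *svp*-labelled libraries. The 3 controls, *Luc* replicate 1 included, were thus within 10% of each other in this ratio. *daw* relative to *Ilp6* gave 0.393, 0.400 and 0.540 in the controls and 3.06, 1.60 and 1.66 in the *svp*-labelled libraries. For *CCHa2* relative to *daw* the values were 22.6, 22.5 and 18.0 against 15.8, 15 and 15.8, lower without overlap. *CCHa2* and *daw* had the highest fitted values and *Ilp6* the lowest. A difference between the groups in the ratios to *Ilp6* therefore followed from the choice of pairs. The ratios of this paragraph only describe how far apart the libraries lay.

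Counts of the signal genes were also set against those of the adult fat body markers. The yolk protein genes *Yp1*, *Yp2* and *Yp3* made up 93.1% to 94.6% of the counts of these 9 markers, so the ratios are largely to yolk protein transcripts, and values against the other 6 markers are given beside them. Within the list *Yp1*, *Yp2* and *Yp3* had log2 fold changes of 0.48, 0.59 and 0.31, whereas *Mtp* and *Lsd-1* were at -0.38 and -0.29, and 0 markers passed edgeR's test. The marker sum overlapped between the groups, at 58637, 123100 and 164870 CPM in the controls and 147920, 181760 and 145020 CPM in the *svp*-labelled libraries, and *Luc* replicate 1 was the library farthest from the rest.

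Per 1000 counts of all 9 markers there were 0.184, 0.173 and 0.169 counts of *daw* in the controls and 0.335, 0.329 and 0.329 in the *svp*-labelled libraries, so that the libraries of each group lay close together. Against the 6 markers other than yolk proteins *daw* had 2.69, 2.69 and 3.00 counts per 1000 in the controls and 5.43, 5.70 and 6.15 in the *svp*-labelled libraries. The means differed 1.89-fold by the first measure and 2.06-fold by the second. For *CCHa2* the ratio to all markers was 4.16, 3.88 and 3.06 against 5.30, 4.95 and 5.20, and the means differed 1.39-fold, or 1.53-fold against the other 6 markers. For *Ilp6* it was 0.469, 0.432 and 0.314 against 0.109, 0.206 and 0.198. *egr* and *gbb* were also lower without overlap in the ratio to all markers, and *gbb* overlapped in the ratio to the other 6. In the ratio to all markers 2 of the 8 genes were thus higher without overlap, where 1.32% of all genes tested were, and 3 of the 8 lower, where 20.9% were. When library sizes were set to the marker counts, the median log2 fold change of all genes moved to -0.787, so values in that fit are read against this median. edgeR then called 28 genes (0.302%) and 0 of the 8 signal genes. *daw* at 0.92, *CCHa2* at 0.48, *ImpL2* at -0.41, *NLaz* at -0.50, *upd2* at -0.61 and *gbb* at -0.70 lay above the median of all genes, and *egr* at -0.97 and *Ilp6* at -1.24 below it.

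**Figure D3:**
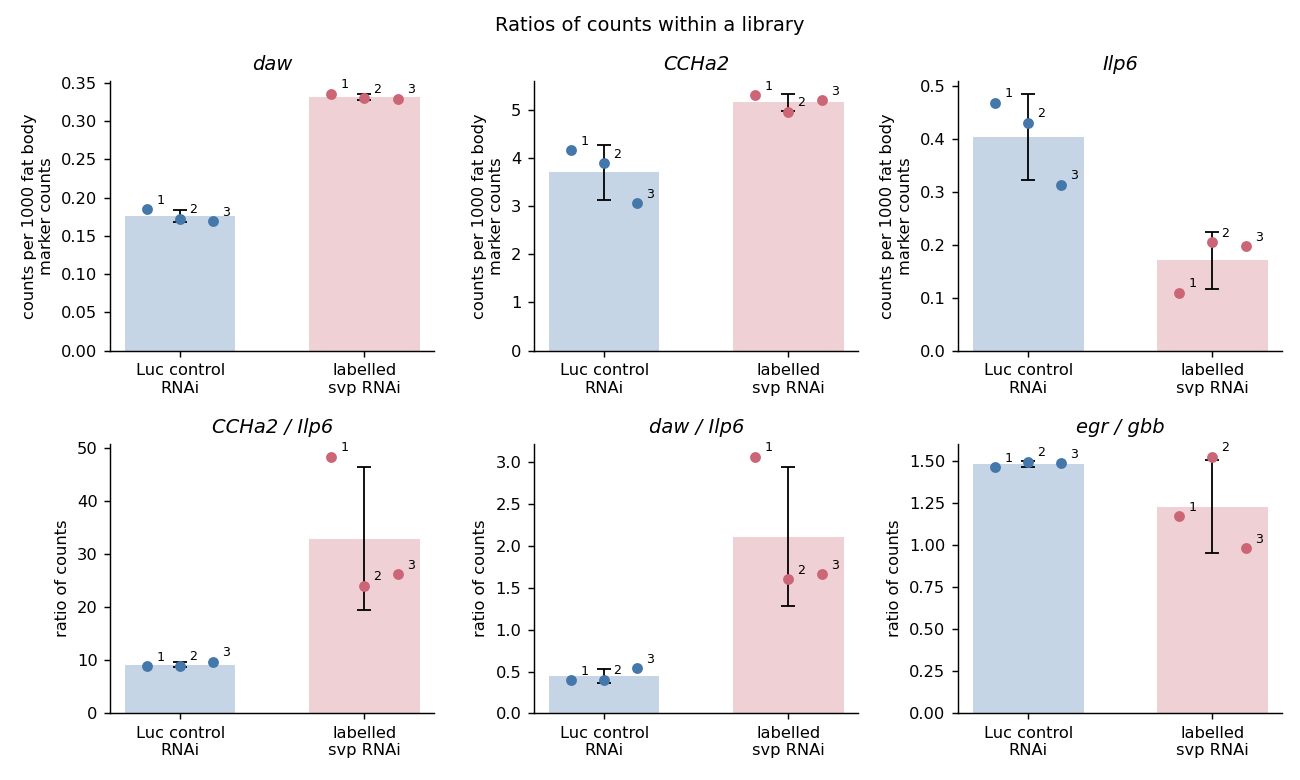
Ratios of counts within a library, which need no library scaling (vertical axes from 0). The upper row gives counts of *daw*, *CCHa2* and *Ilp6* per 1000 counts of adult fat body markers, most of them of yolk protein genes, and the lower row gives ratios between signal genes. Points are libraries with their replicate number, bars are means and error bars SD (n = 3). *daw* takes 0.169 to 0.184 in the controls and 0.329 to 0.335 in the *svp*-labelled libraries, and *egr* relative to *gbb* stays between 0.983 and 1.53.

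*egr*, *gbb* and *upd2* varied more between libraries of a group than between the groups. *egr* (FBgn0033483; chromosome 2R from 10078366 to 10084210, + strand) encodes Eiger, and its CPM was 21.3, 56.5 and 41.3 in the *Luc* libraries and 23.0, 42.2 and 23.1 in the *svp*-labelled libraries. *gbb* (FBgn0024234; chromosome 2R from 23851562 to 23853247, + strand) had a CPM of 14.6, 37.8 and 27.8 against 19.6, 27.6 and 23.5. For *upd2* (FBgn0030904; chromosome X from 18240654 to 18243284, − strand), the weakest of the 8, there were 39, 94 and 91 counts in the control libraries against 73, 78 and 60 in the *svp*-labelled libraries. The CPM of these 3 genes overlapped between the groups. Their log2 fold changes were -0.43 (95% interval -1.42 to 0.56), -0.18 (-1.04 to 0.68) and -0.19 (-1.49 to 1.10), each with an edgeR adjusted p of 1.00, and the interval of *upd2* held a 2-fold change in either direction. The sign of *upd2* turned without *Luc* replicate 2 or 3, and that of *gbb* without *Luc* replicate 2.

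Summed markers of hemocytes, the blood cells of the fly, of oenocytes, of muscle and of neurons were, like these genes, lowest in *Luc* replicate 1 and highest in *Luc* replicate 2. Many genes had similar profiles, with 328 within 0.25 log2 units of *egr*, 838 of *gbb* and 259 of *upd2*, as described below. The sums of other lists differed. Midgut markers were highest in *Luc* replicate 1 (1444 CPM), ovary markers lowest in *Luc* replicate 3 (559) and Malpighian tubule markers lowest in *Luc* replicate 2 (47.4). All 6 hemocyte markers, among them *Hml*, *NimC1* and *eater*, were detected in every library, and their summed CPM was 638, 2092 and 1188 in the controls and 794, 1977 and 992 in the *svp*-labelled libraries. The order of the 6 libraries by this sum was the same as their order by *egr*. Muscle markers gave that order too, with a summed CPM of 233, 1207 and 422 in the controls and 381, 475 and 413 in the *svp*-labelled libraries. Within the hemocyte list *NimC1* had a log2 fold change of 1.04 and *Hml* one of 0.04. *eater*, *Pxn*, *Sr-CI* and *He* were at -0.42, -0.50, -0.25 and -0.63. Per 1000 hemocyte marker counts, *egr* had 33.4, 27.0 and 34.8 counts in the control libraries against 29.0, 21.3 and 23.3 in the *svp*-labelled libraries. The summed CPM of 4 oenocyte markers, each detected in every library, was 4579, 20901 and 14680 against 9598, 14370 and 14298. *gbb*, *upd2* and this sum were lowest in *Luc* replicate 1, next lowest in *svp*-labelled replicate 1 and highest in *Luc* replicate 2. The sum was mostly *Cyp4g1*, and *svp*-labelled replicates 2 and 3 were nearly level in it. The summed CPM of neuron markers was 10.9, 32.7 and 22.0 against 15.6, 18.3 and 18.7. It too was lowest in *Luc* replicate 1, next lowest in *svp*-labelled replicate 1 and highest in *Luc* replicate 2. The part of any of these cell types in the values was not tested. *CCHa2* and *daw* had a different profile, in which the *svp*-labelled libraries held the 3 highest places. *egr* and *gbb* kept a nearly fixed ratio in the controls, at 1.46, 1.5 and 1.49, which was 1.17, 1.53 and 0.983 in the *svp*-labelled libraries.

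**Figure D4:**
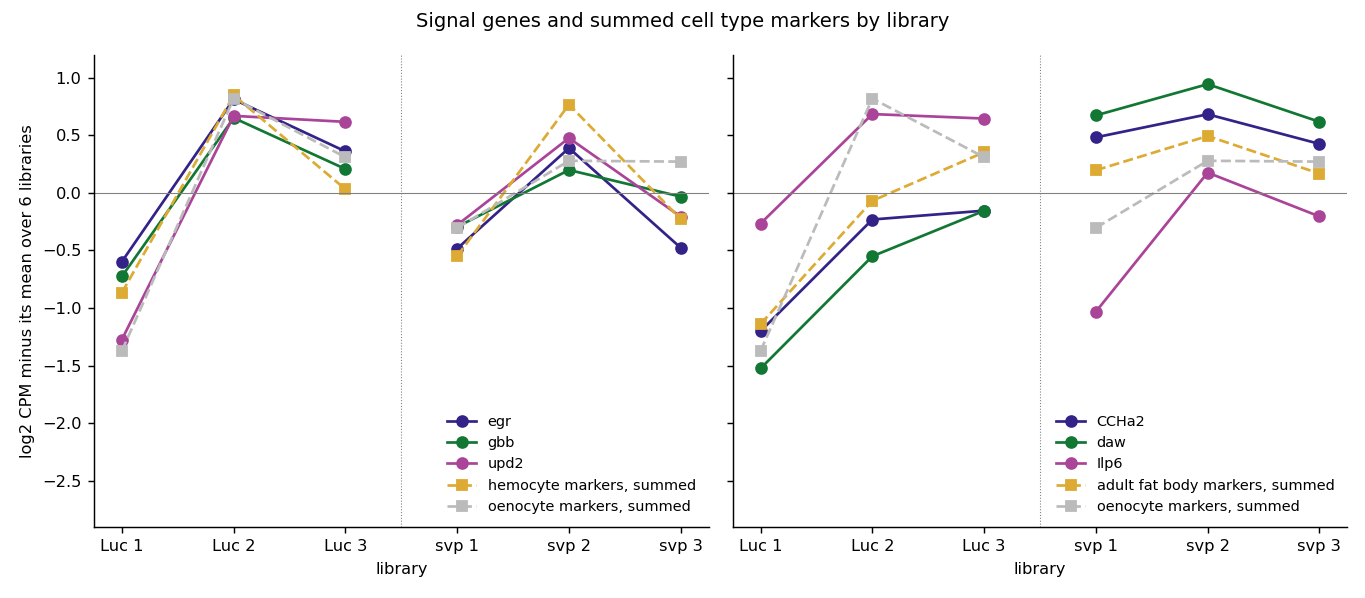
Log2 CPM minus its mean over the 6 libraries (vertical axis) for signal genes (circles) and for summed markers of cell types (squares) in each library (horizontal axis, Luc for the *Luc* and svp for the *svp*-labelled libraries). Lines join the libraries of a group only to guide the eye, since replicates have no order. *egr*, *gbb* and *upd2* (left) are lowest in *Luc* replicate 1 and highest in replicate 2, like both marker sums, whereas *CCHa2* and *daw* (right) are highest in the 3 *svp*-labelled libraries.

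*NLaz* (FBgn0053126; chromosome 2L from 1359837 to 1361821, − strand) was the steadiest of the 8 in the *svp*-labelled libraries. Its CPM was 48.1, 53.2 and 49.0 there, inside the range of the controls at 33.1, 65.2 and 41.7. The difference of 0.10 on the log2 scale (standard error 0.28, 95% interval from -0.56 to 0.76, edgeR adjusted p = 1.00) was smaller than the spread between control libraries, and it turned to -0.068 without *Luc* replicate 1. For 7 of the 8 genes the SD of log2 CPM was larger in the controls, *Ilp6* being the exception.

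Receptors of these ligands were detected in the same libraries, that of CCHa2 with few counts. *CCHa2-R* had 3, 1 and 5 counts in the control libraries against 5, 3 and 4 in the *svp*-labelled libraries, and was left out by the filter on low counts. The Upd receptor *dome* had 64.5 ± 26.4 CPM in the controls and 64.3 ± 11.6 in the *svp*-labelled libraries (SD, n = 3). The insulin receptor *InR* had 36.8 ± 7.33 and 39.1 ± 2.33 CPM. The TNF receptors *grnd* and *wgn* had 8.74 ± 5.76 and 8.41 ± 6.62 CPM in the controls and 6.09 ± 1.40 and 7.54 ± 1.72 in the *svp*-labelled libraries. The type I receptors *babo*, *tkv* and *sax* and the type II receptor *put*, through which TGF-β ligands signal, had log2 fold changes between -0.02 for *babo* and 0.15 for *put*. The type II receptor *wit* was higher in each of the *svp*-labelled libraries, with 17.7, 16.7 and 17.2 CPM against 6.22, 16.2 and 12.2, although *Luc* replicate 2 lay just below them (log2 fold change 0.58, standard error 0.36, edgeR adjusted p = 1.00). None of the 9 receptor genes that were tested had an unadjusted p under 0.05.

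The same held for the wider pathways. Lists of ligands, receptors, transducers and targets held 92 further genes found in the files, of which 82 passed the filter on low counts. edgeR called 0 of them, 0 had an unadjusted p under 0.05 where 4.99% of all genes tested did, and DESeq2 called 0. Of the 82 genes 36 had a positive and 46 a negative log2 fold change, with a median of -0.02. Among the JAK/STAT genes the stress genes *TotA*, *TotC* and *TotM*, known targets of the pathway, had log2 fold changes of 0.23, 0.26 and 0.21, and the feedback inhibitor *Socs36E* one of -0.04. In the TNF list *puc*, a target and inhibitor of JNK, was at 0.22. In the Activin branch *daw* was the gene with the largest log2 fold change, and the related ligands *myo*, *mav* and *Actbeta* were at -0.02, -0.32 and -0.04. The FOXO-responsive list had *Thor*, the 4E-BP gene, at 0.44 and *Lip4*, which encodes a lipase, at -1.0 (standard error 0.47, edgeR adjusted p = 1.00). The Gbp family peptide gene *Gbp3* stood at -0.88 (standard error 0.42, edgeR adjusted p = 1.00), with 74.6, 177 and 239 CPM in the controls and 74.9, 107 and 85.4 in the *svp*-labelled libraries, while *Gbp1* and *Gbp2* were at -0.05 and -0.03. *GLaz* and *Karl*, the other lipocalin genes, were at -0.30 and -0.43.

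**Figure D5:**
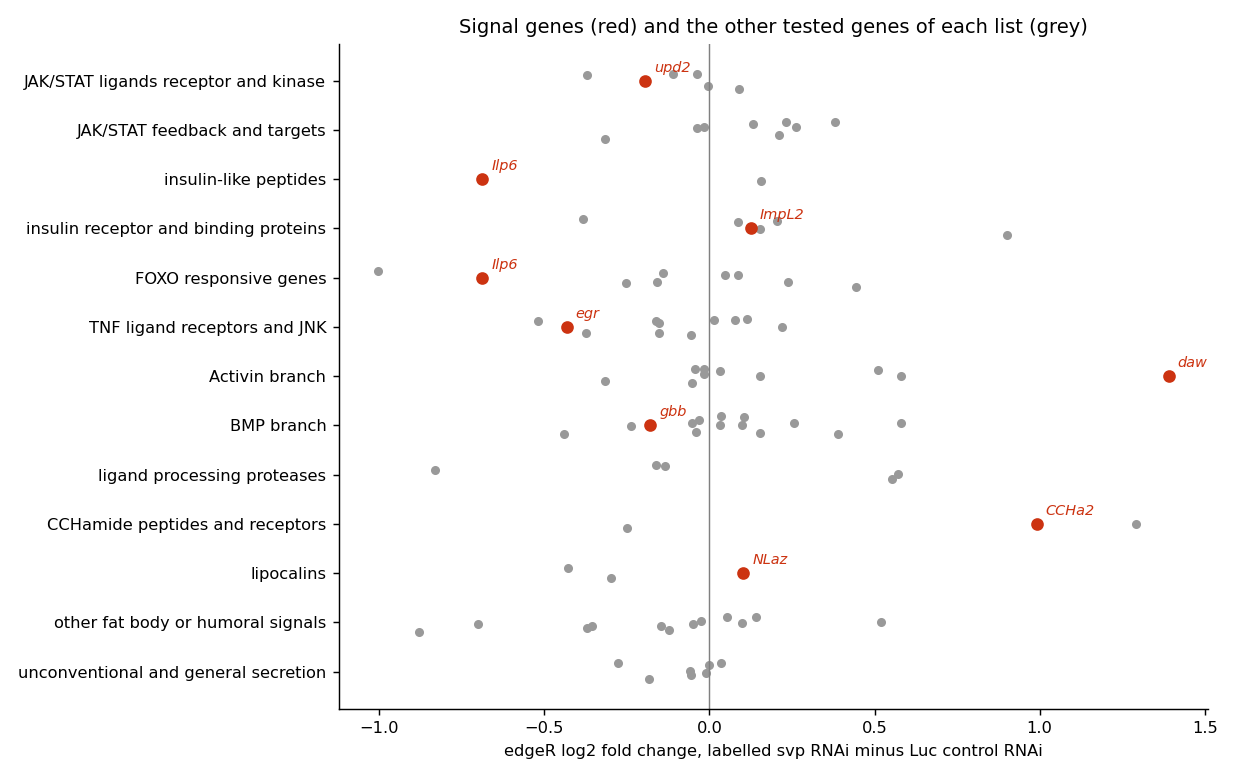
edgeR log2 fold change (horizontal axis, *svp*-labelled libraries minus *Luc* control RNAi) of the tested genes in 13 lists (vertical axis). Red points are the 8 signal genes, of which *Ilp6* is in 2 lists, and grey points are the other genes, spread vertically for visibility. *daw* at 1.39 is the rightmost point, and *CCHa2* at 0.99 is passed in its list by *CCHa1-R*, which had between 1 and 20 counts per library.

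Of the other insulin-like peptide genes only *Ilp8* passed the filter on low counts. *Ilp2* and *Ilp3* had 0 counts in each library, which allows up to 3 counts, or between 0.128 and 0.215 CPM depending on the library, for counting error only. *Ilp5* had 1 count in *svp*-labelled replicate 2. *Ilp1* and *Ilp4* were found only in *Luc* replicate 1, with 5 and 3 counts. The same library held 48 counts of the cytokine gene *upd1* and 40 counts of the BMP ligand gene *scw*, where the other libraries had at most 6 and 0. *Ilp8* had 9, 41 and 12 counts in the control libraries against 45, 11 and 26 in the *svp*-labelled libraries. Among ligands of other pathways *upd3* had 3.96, 12.8 and 7.78 CPM against 6.03, 9.16 and 3.77, and *CCHa1* had between 8 and 19 counts per library.

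Genes whose profile over the 6 libraries was most like that of a signal gene were found by the root mean square difference of mean-centered log2 CPM, over 6485 or 6486 tested genes with a mean of at least 10 CPM. *CCHa2* was closest to *CG14688* (0.0897 log2 units) and *Slc45-1* (0.111), and *daw* to *Ugt86Dd* (0.125) and *Eip71CD* (0.132). These genes had log2 fold changes of 0.98, 1.09, 1.45 and 1.52. Values near those of *CCHa2* and *daw* follow from the choice, which used the same 6 libraries. Few genes resembled *daw*, with 20 within 0.25 log2 units, or *Ilp6*, with 35, the closest being *mt:lrRNA* (0.183) and *CG42368* (0.183). For *CCHa2* the number was 60, for *ImpL2* 99, for *upd2* 259, for *egr* 328, for *NLaz* 818 and for *gbb* 838. The closest profiles were those of *cv-c* and *TMS1* for *gbb*, of *CG17278* and *CG30151* for *upd2*, of *AnxB9* and *CG13384* for *egr*, of *ckn* and *CG32195* for *ImpL2* and of *CG13604* and *CG2781* for *NLaz*.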

How the data were processed

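Reads were aligned with TopHat to the Ensembl reference and counted on genes with HTSeq by the authors, who deposited whole-number counts per gene. For the comparison of the groups the paper names DESeq2, which is an alternative here. The deposited FPKM values divide those counts by library total and by 1 length per gene, which for the 8 signal genes was the mean length of their annotated transcripts. Versions and the strand setting are not given in the sources used here. Coordinates are those of the files on BDGP6 and equal those of the Ensembl annotation for the 8 genes. Gene symbols of the lists were matched by name, or by gene identifier where the symbol had changed.

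Libraries held 15648948 to 19476599 counts, so counting error was small beside the spread between libraries except for genes with few counts. The 9277 genes that passed edgeR's filter on low counts were compared with edgeR 4.0.16 in R 4.3.3 (TMM, quasi-likelihood test, Benjamini-Hochberg adjustment, threshold 0.05), with 3 libraries per group. The test was checked on simulated data in which the libraries of a group shared 1 expected profile. That check does not cover a library set apart as *Luc* replicate 1 was. The alternatives were DESeq2 1.42.0, limma 3.58.1 on log2(FPKM + 1) or log2(FPKM + 0.1), other size factors, other filters on low counts, the replicate number as a block and leaving out each library. A fit scaled to fat body markers, ratios to these markers without yolk protein genes and FPKM with the listed lengths were chosen after seeing the data. Named genes are the 8 signal genes, *svp*, their receptors and the 2 most similar profiles per gene; other genes are named as members of the lists, some of them after their values were seen. The signal genes and the lists were chosen with earlier results of these data known. The labels call the samples a triplicate, and the paper speaks of independent experiments.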

Additional observations from a re-analysis of the deposited data

How the results depend on the processing

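Of the 8 signal genes edgeR called 0, as did its fits with other size factors, other filters, the replicate block, marker scaling or any library left out. DESeq2 called 1 gene (*daw*, adjusted p = 0.0282, log2 fold change 1.39), and limma on log2(FPKM + 1) and log2(FPKM + 0.1) called 1 each (*CCHa2*, 1.10 and 1.10). Signs turned for *upd2* with limma on log2(FPKM + 1) and log2(FPKM + 0.1), to 0.0026 and 0.029, and for *ImpL2* and *NLaz* with marker scaling, to -0.41 and -0.50, a scaling that moved the median of all genes to -0.787, below both. When each library was left out, log2 fold changes ranged from -0.58 to 0.085 (*upd2*), -0.97 to -0.42 (*Ilp6*), -0.13 to 0.53 (*ImpL2*), 0.76 to 1.17 (*CCHa2*), -0.78 to -0.090 (*egr*), 1.13 to 1.71 (*daw*), -0.45 to 0.16 (*gbb*) and -0.068 to 0.42 (*NLaz*). The number of all genes called was 9 with edgeR, 14 with DESeq2's size factors, 149 with DESeq2, 25 without a filter, 3 with at least 10 counts in every library, 27 with the replicate block, 55 and 53 with limma on log2(FPKM + 1) and log2(FPKM + 0.1), 28 with marker scaling, and 3 to 61 when each library was left out, with 61 without *Luc* replicate 1. The cause was not tested. Whether the replicate numbers pair the samples is not known. Same-numbered libraries deviated together for numbers 1 and 2 (r = 0.503 and 0.538) and not for 3 (r = -0.306). Some differently numbered libraries did so as well. *Luc* replicate 3 had r = 0.502 with *svp*-labelled replicate 2, and *Luc* replicate 1 had r = 0.437 with *svp*-labelled replicate 3. The remaining pairs had values from -0.682 to -0.355. These values cannot decide it, since deviations from a mean of 3 libraries depend on each other. With the block *daw* was at 1.49 (edgeR adjusted p = 0.183, unadjusted p = 0.00211) and *CCHa2* at 1.06 (adjusted p = 0.335, unadjusted p = 0.0078). *Ilp6* was at -0.71 in that fit (edgeR adjusted p = 0.318, unadjusted p = 0.00703). Among the 8 genes *upd2*, with 39 to 94 counts, had the widest interval.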
